A study of Homo sapiens with 12 samples.

Results

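MCFNeoT and its parent line MCF10A were compared gene by gene, from the 3 libraries of each line. These 6 of the 12 libraries of the series were chosen by their labels, and the other 6, from the lines MCFT1 and MCFCA1, did not enter the comparison. The series prepared DNA, RNA and peptides together from cultured breast cell lines to judge the quality and repeatability of that preparation, and the RNA libraries were made from DNase-treated total RNA. MCF10A, labelled A10, is listed as non-tumorigenic, and MCFNeoT, labelled NeoT, as benign hyperplasia. The labels name no treatment or time for either line.

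MCF10A is an immortal line of human mammary epithelium that grows in culture with basal features, and MCFNeoT was derived from it by introducing an activated HRAS gene. HRAS is a small GTPase that, when loaded with GTP, switches on the RAF, MEK and ERK kinases, which raise the transcription of growth and feedback genes. Basal mammary epithelial cells are known for keratins 5 and 14, for the transcription factor p63 and for hemidesmosomes, the anchors that tie the keratin network to laminin in the basement membrane. Each line is a single line in culture, so a difference between them can come from the introduced gene or from anything else in which the cultures differ, and these cannot be told apart. The labels call the replicates biological without saying what was separate, so the p-values measure the spread between these libraries. In bulk RNA, fewer cells of a type and less RNA per cell cannot be told apart.

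The libraries held 18032404 to 35730417 estimated counts, and 12663 to 13906 genes had at least 10 counts. NeoT replicate 3, the library with the fewest counts, stood somewhat apart: its log2 values correlated with those of the other NeoT libraries at 0.9785 and 0.9797, against 0.9887 between those 2 and 0.9874 to 0.9892 within A10. Between replicates the genes varied by 8.426% in A10 and by 15.57% in NeoT (biological coefficient of variation). Mitochondrial rRNA took 0.1519 to 0.1643% of the counts in A10 and 0.3775 to 0.4942% in NeoT, and its part in the results was not tested. Levels below are CPM, the count divided by library size after TMM scaling over the 6 libraries, given in the order of replicates 1, 2 and 3. They serve to compare 1 gene between lines and not 1 gene with another, since transcript length is not accounted for.

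HRAS checked the labels. It read 62.9, 62.8 and 70.5 CPM in A10 and 267, 246 and 221 CPM in NeoT. All NeoT libraries lay above all A10 libraries, and the fitted difference was 3.74-fold (log2 1.90, SE 0.0975, adjusted p = 1.254e-08 by edgeR's quasi-likelihood test with Benjamini-Hochberg adjustment). The gene lies on chromosome 11, from 532242 to 535576 in the RefSeq annotation of GRCh38.p14, and the counts do not tell the introduced transcript from the cell's own.

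The 20 markers of basal mammary epithelium summed to 16660 to 18120 CPM in A10 and to 12290 to 12540 CPM in NeoT, with 17 falling and 3 rising. TP63, which encodes p63, was the marker with no count in any NeoT library. Of 19 pan-epithelial markers tested, 18 fell, and their sum went from 3358 to 3657 CPM in A10 to 701.9 to 739.7 CPM in NeoT. Most of the basal sum left in NeoT was ITGB4, at 9553 ± 171 CPM (SD, n = 3), and KRT14, KRT17, CDH1 and CLDN1 averaged 2.63, 5.57, 0.704 and 0.587 CPM there. Markers of other cell types were looked for in the same way. Of 16 fibroblast markers 7 were tested, and these summed to 293.7 to 297.5 CPM in A10 and 927 to 932.5 CPM in NeoT. Among them 4 rose and 3 fell, while THY1, MEOX2 and PI16 were at 0 in both lines. The 6 of 12 leukocyte markers tested summed to 87.65 to 93.68 and 254.3 to 260.9 CPM. Of the NeoT sum CD68 made up 162 ± 7.33 CPM (SD, n = 3). CD68 and LAPTM5 rose and the other 4 tested fell, CORO1A from 11.6 ± 1.80 to 0.380 ± 0.174 CPM, while PTPRC, CD3E, TYROBP and SPI1 were at 0 in both lines. The 7 of 14 adipocyte markers tested summed to 32.19 to 37.63 and 120.7 to 146.4 CPM. Of the 7 tested 6 rose and none fell, CIDEC from 0.0276 ± 0.0478 to 24.2 ± 4.27 CPM (SD, n = 3), and ADIPOQ was at 0 in both lines. The part of such cells in the results was not tested.

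Of 13662 genes tested, 9434 passed an adjusted p of 0.05 (69.1%). Of these, 4558 rose in NeoT (33.4% of the genes tested) and 4876 fell (35.7%). At least 2-fold changes were called for 4727 genes (34.6%). The 3 A10 libraries differed little from each other, so that small differences passed the test, and counts of list members below are to be read against these percentages. The median log2 fold change over all genes was -0.03. The tail of large changes was lopsided: 636 genes fell by at least 16-fold and 190 rose by as much. With at least 1 CPM in every library of 1 line and no count in the other, 171 genes were seen in A10 alone and 26 in NeoT alone.

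**Figure D1:**
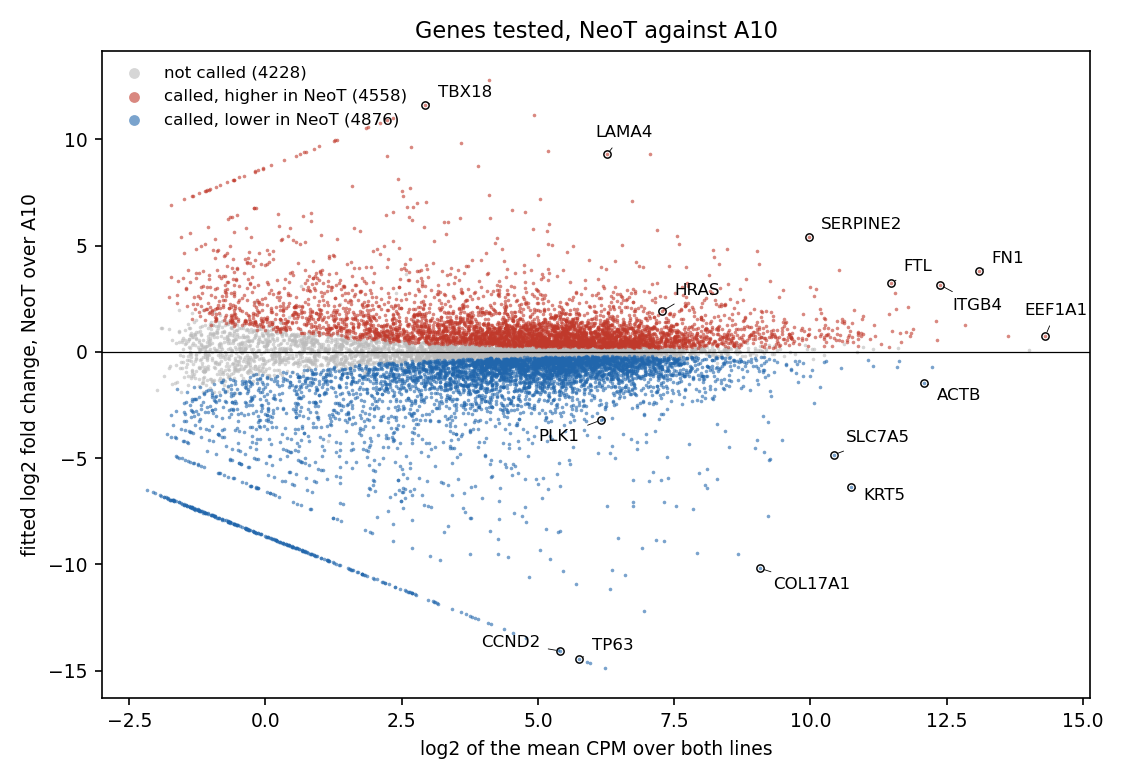
Each point is 1 of 13662 genes, with the log2 of its mean CPM over both lines on the x axis and the fitted log2 fold change (NeoT over A10) on the y axis; red and blue points passed the test and grey points did not. Ringed genes are described in the text, and the straight lines of points at the left edges are genes with no count in one line, whose fitted values depend on the prior count.

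The genes of the basement membrane anchor did not move as a block. NeoT expressed far less of the laminin-332 chain LAMA3, of the transmembrane collagen COL17A1 and of the integrin subunit ITGA6, but far more of ITGB4, the integrin subunit that pairs with ITGA6 in the hemidesmosome. Of the 11 hemidesmosome genes, 7 fell and 4 rose, all past the test. ITGB4 read 951, 1194 and 1082 CPM in A10 and 9633, 9670.0 and 9358 CPM in NeoT. Its levels did not overlap and it rose 8.88-fold (log2 3.15, SE 0.0941, adjusted p = 1.597e-10, edgeR quasi-likelihood test), the third largest rise in mean CPM of all genes. ITGA6 went the other way, from between 632 and 678 CPM to between 190.2 and 249 CPM, and was 3.08-fold lower (adjusted p = 8.697e-08, edgeR). COL17A1, which spans the membrane and binds laminin outside the cell, read 1004, 1167 and 1076 CPM in A10 and 0.625, 0.974 and 1.23 CPM in NeoT, a fitted fall of 1166-fold. DST, a plakin that holds keratin to the plaque, was 2.15-fold lower, whereas the plakin PLEC was 1.45-fold higher and the tetraspanin CD151 was 1.33-fold higher. The keratins that attach to this plaque in basal cells were far lower in NeoT: KRT5 averaged 3394 ± 139 CPM in A10 and 41.0 ± 3.83 CPM in NeoT (SD, n = 3), and KRT14 averaged 457 ± 20.1 and 2.63 ± 0.810 CPM.

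Laminins are trimers of an alpha, a beta and a gamma chain, and the chains moved apart. In laminin-332, the form that hemidesmosomes bind, LAMA3 fell and LAMB3 rose slightly. LAMA3 read 962, 1022 and 913 CPM in A10 and 40.2, 45.3 and 42.3 CPM in NeoT, 22.7-fold lower (adjusted p = 2.104e-11, edgeR). LAMB3 averaged 1206 ± 78.8 CPM in A10 and 1477 ± 45.2 CPM in NeoT (SD, n = 3), 1.23-fold higher with an adjusted p of 0.005023 (edgeR). Chains of other laminins moved up, with the exceptions of LAMA1 and LAMA2. LAMA4, the alpha chain of laminins made by mesenchymal and endothelial cells, read 0.461, 0.0828 and 0.0730 CPM in A10 and 139, 145 and 179.6 CPM in NeoT, a fitted 631-fold rise from a level near 0 (log2 9.30, and 10.86 without A10 replicate 1). LAMA5 was 3.98-fold, LAMB1 3.24-fold, LAMB2 4.70-fold and LAMC1 2.26-fold higher. LAMA1, the main alpha chain of early basement membranes, was 7.84-fold lower. In all, 6 of the 10 chains tested rose and 4 fell, and the LAMA2 call (log2 -2.15) was lost on leaving out any 1 library other than NeoT replicate 3 (log2 -1.51 to -2.21).

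**Figure D2:**
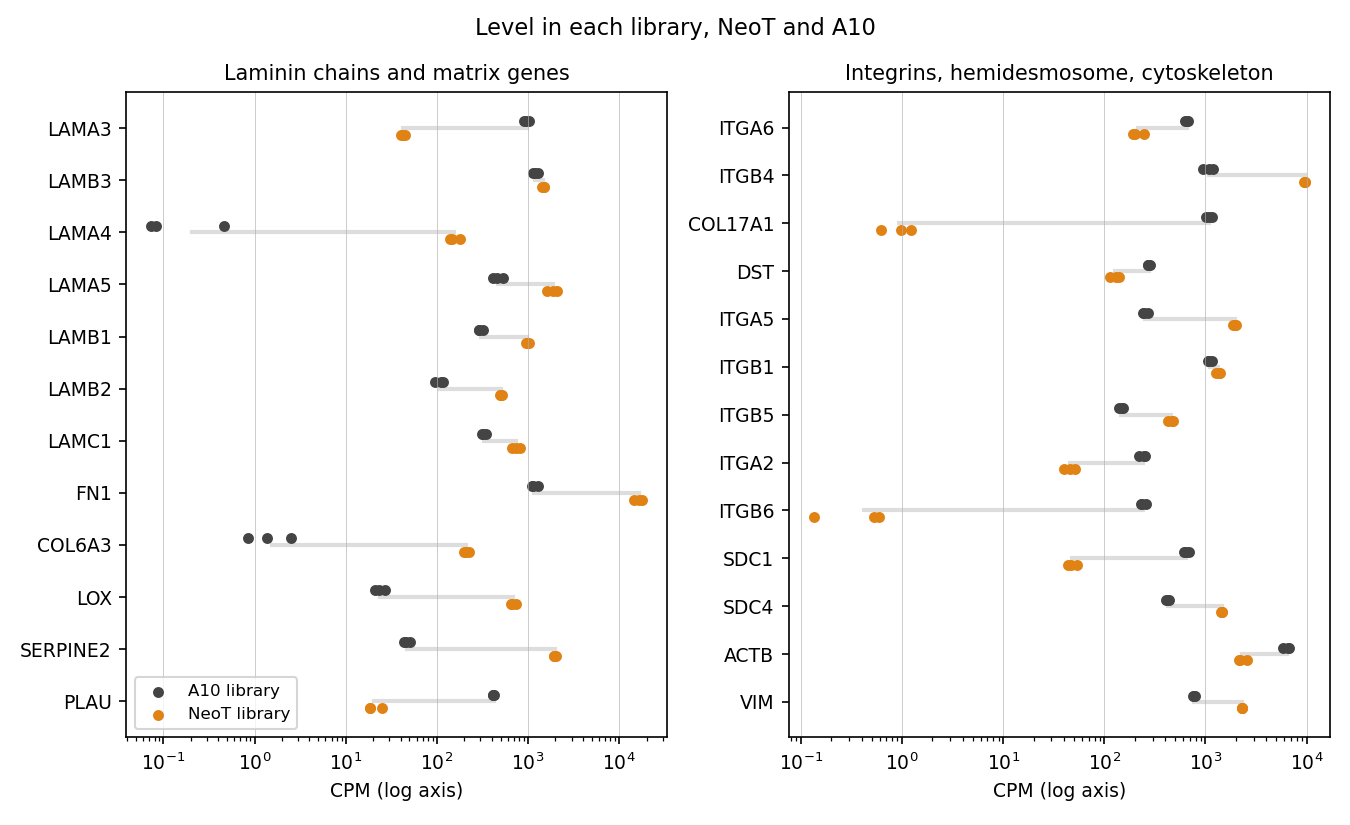
Each dot is 1 library, with CPM on a log axis, for laminin and matrix genes on the left and integrin, hemidesmosome and cytoskeleton genes on the right; grey bars join the line means. The laminin-332 chain LAMA3 is lower in every NeoT library while LAMA4, LAMA5, LAMB1, LAMB2 and LAMC1 are higher, and ITGA6 and ITGB4 move in opposite directions.

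Over all 17 integrin subunits tested, with ITGA6 and ITGB4 included, 7 rose and 8 fell. ITGA5, which forms the main fibronectin receptor, read 242, 267 and 246 CPM in A10 and 1951, 2001 and 1879 CPM in NeoT, 7.72-fold higher (adjusted p = 8.653e-11, edgeR). Its ligand FN1, fibronectin, read 1126, 1293 and 1103 CPM in A10 and 14584, 16342 and 18005 CPM in NeoT. That 13.9-fold difference was the largest rise in mean CPM of any gene. ITGB5, a partner of the alpha-v subunit, was 3.12-fold higher. ITGB6, an epithelial subunit that also pairs with alpha-v and activates latent TGF-beta, fell from 241 ± 14.9 to 0.418 ± 0.247 CPM (SD, n = 3), and the collagen receptor subunit ITGA2 was 5.25-fold lower.

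Matrix genes moved in both directions, and the counts alone set few of these lists apart. Of 22 collagens tested 9 rose and 10 fell, and of 28 elastic fibre genes and matrix glycoproteins 13 rose and 13 fell. The collagen VI chains were among the rises: COL6A3 went from 1.57 ± 0.838 to 211 ± 12.6 CPM (SD, n = 3) and COL6A1 was 7.53-fold higher. FBN1, the microfibril protein fibrillin, was 6.91-fold higher, and the latent TGF-beta binding protein LTBP4 was 9.56-fold higher. POSTN and SPARC, which fibroblasts also make in quantity, fell instead, POSTN from 63.2 ± 3.13 to 0.870 ± 0.492 CPM and SPARC from 71.5 ± 1.38 to 0.832 ± 0.218 CPM. The small proteoglycan decorin, DCN, read 69.8, 67.0 and 73.4 CPM in A10 and 641, 618 and 678 CPM in NeoT. The syndecans were split: SDC1, the epithelial member, was 13.3-fold lower and SDC4, which sits with fibronectin at focal adhesions, was 3.41-fold higher.

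Enzymes that modify collagen mostly rose, with 9 of 13 up and 2 down against 33.4% and 35.7% over all genes. LOX, the lysyl oxidase that starts crosslinking of collagen and elastin, read 27.2, 21.2 and 23.3 CPM in A10 and 644, 672 and 747 CPM in NeoT, 28.7-fold higher with no overlap (log2 4.84, SE 0.119, adjusted p = 4.135e-11, edgeR). PLOD1, a collagen lysyl hydroxylase, was 4.53-fold higher. Of 23 matrix metalloproteinases, related proteases and their inhibitors, 12 rose and 7 fell, and the inhibitor TIMP1 averaged 299 ± 15.6 CPM in A10 and 1850.1 ± 73.0 CPM in NeoT (SD, n = 3). MMP2, a type IV collagen protease, was 5.22-fold higher and ADAM12 was 7.97-fold higher.

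Of 13 genes of plasminogen activation and serpins 10 fell and 3 rose, and both activators were among the falls. PLAU, urokinase, read 416, 422 and 417 CPM in A10 and 24.7, 18.6 and 18.4 CPM in NeoT, 20.3-fold lower (adjusted p = 1.062e-10, edgeR). PLAT, the tissue-type activator, was 26.9-fold lower. SERPINE2, an inhibitor of both, read 43.3, 51.0 and 45.6 CPM against 1945, 1907 and 2019 CPM, 42.0-fold higher. The 4 clade B serpins on the list, SERPINB2, SERPINB5, SERPINB7 and SERPINB13, fell. SERPINB2 was 10.7-fold lower, and SERPINB13, a keratinocyte serpin, averaged 26.9 ± 1.98 CPM in A10 (SD, n = 3) and had no count in NeoT, at least 556-fold lower against a floor of 3 counts over the line.

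The cytoskeleton changed with the matrix. ACTB, cytoplasmic beta-actin, was 2.76-fold lower, from 6373 ± 430.2 to 2308 ± 239 CPM (SD, n = 3), the largest fall in mean CPM of any gene. Of 20 actin and contractile genes 13 fell and 6 rose. MYL9, a regulatory myosin light chain, averaged 70.4 ± 4.21 CPM in A10 and 0.226 ± 0.161 CPM in NeoT. The intermediate filament gene VIM, vimentin, read 759, 796 and 764 CPM in A10 and 2273, 2282 and 2291 CPM in NeoT, 2.95-fold higher.

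Transcription factors of epithelial identity fell as a list: 18 of 23 tested were down and TFAP2C was up, with a median log2 fold change of -2.65 against -0.03 over all genes. TP63 read 111, 106 and 108 CPM in A10 and 0, 0 and 0 in NeoT, at least 2236-fold lower against the floor of 3 counts over the line. SOX15 fell from 84.8 ± 7.22 to 0.222 ± 0.246 CPM and ELF3, an ETS factor of epithelia, from 54.7 ± 4.72 to 1.80 ± 0.402 CPM (SD, n = 3). Of 14 factors linked to the epithelial-mesenchymal transition, 8 rose and 2 fell. SNAI1 read 0.282, 0.497 and 0.329 CPM in A10 and 12.2, 9.70 and 9.88 CPM in NeoT, ZEB1 read 4.59, 4.18 and 3.62 CPM against 31.3, 36.6 and 37.8 CPM, and both were free of overlap. ZEB2 was 6.12-fold and TWIST1 7.18-fold higher. Of the 2 falls, TCF4 was 1.59-fold lower and the other passed 2-fold. The largest fitted change of this list was a fall, at log2 -5.005, in a member not named here. Its largest rise was at log2 4.87. Factors of mesenchyme moved in both directions: of 24 tested 11 rose and 7 fell (75.0% called, against 69.1% of all genes). Their fitted log2 fold changes ran from -7.53 to 11.60. Among the rises, the mesodermal T-box factor TBX18 had no count in A10 and 13.7, 14.9 and 17.2 CPM in NeoT, at least 461-fold higher. The nuclear receptor NR2F1 was 12.4-fold higher.

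ZEB and SNAI proteins are known to bind the E-box CAGGTG and to repress epithelial genes. The E-box was therefore read, on either strand, in the 300 bases from 250 before to 50 after the first start site that RefSeq gives for each gene. It was found in 6 of 11 pan-epithelial and 5 of 10 basal marker promoters that the sequence table holds (54.5% of the first), in 5 of 16 of the epithelial factors (31.2%) and in 18.5% of 10641 promoters of tested genes (20.6% of all 27305). The list of claudins and tight junction scaffolds held the E-box in 5 of 21 promoters (23.8%), some of them of genes not tested. Of the 14 genes of that list tested 11 fell, with a median log2 fold change of -3.18. The E-box was in 4 of 10 desmosome and 4 of 6 hemidesmosome promoters, so the falling epithelial lists differed in it. A match is a description of letters, not a binding site. The stretches below, of 60 bases, 5′ to 3′ on the gene's strand, come from genes that fell, with the E-box in capitals: OCLN, occludin of the tight junction (chr5:69492487-69492546, plus strand), KRT5 (chr12:52520492-52520551, minus strand) and SFN, the epithelial 14-3-3 sigma (chr1:26862909-26862968, plus strand).
OCLN: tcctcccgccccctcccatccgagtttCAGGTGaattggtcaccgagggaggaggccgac
KRT5: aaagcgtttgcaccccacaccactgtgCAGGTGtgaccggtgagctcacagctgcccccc
SFN: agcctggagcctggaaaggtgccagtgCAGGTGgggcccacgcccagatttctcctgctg

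OCLN averaged 38.7 ± 1.03 CPM in A10 and 0.276 ± 0.339 CPM in NeoT (SD, n = 3), and SFN averaged 1182 ± 84.2 and 34.6 ± 9.06 CPM. Not every adhesion gene of epithelium fell. DSG2, a desmosomal cadherin, read 295, 284 and 268 CPM in A10 and 257, 274 and 314 CPM in NeoT. Its groups overlapped and the test did not call it (log2 -0.00, SE 0.0905, adjusted p = 0.9702, edgeR), while 8 of the 9 desmosome genes tested fell.

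In the RAS family itself HRAS did not stand alone. RRAS, a related GTPase that acts on integrins and adhesion, read 31.3, 28.7 and 30.9 CPM in A10 and 155, 139.5 and 116 CPM in NeoT, 4.51-fold higher (adjusted p = 1.65e-08, edgeR). HRAS and RRAS were the members that rose, 2 of 13 tested, and 6 fell. RAP2B was 4.30-fold lower. NRAS read 78.6, 67.3 and 67.4 CPM against 52.5, 61.3 and 83.7 CPM, which overlapped (adjusted p = 0.5147, edgeR). Without NeoT replicate 3, its NRAS value of log2 -0.33 passed the test.

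Below RAS, the RAF, MEK and ERK kinases moved in both directions, with 7 of 15 up and 6 down (86.7% called, against 69.1% of all genes) and a median log2 fold change of -0.18. MAPK3, the ERK1 gene, was 2.42-fold higher, BRAF 2.09-fold higher and the ribosomal S6 kinase RPS6KA2 3.80-fold higher, whereas MAP2K1, which encodes MEK1, was 1.84-fold lower. Genes that ERK switches on rose in larger number, 14 of 24 with 6 down and a median log2 fold change of 0.66. Phosphatases and Sprouty proteins, which act as brakes on the same pathway, were among both the rises and the falls. DUSP4, a nuclear phosphatase of ERK, read 109, 115 and 108 CPM in A10 and 1118, 1159 and 1071 CPM in NeoT, 10.1-fold higher with tight replicates (log2 3.33, SE 0.0815, adjusted p = 4.135e-11, edgeR). SPRY4, a Sprouty inhibitor of receptor signalling, read 31.1, 34.9 and 32.4 CPM against 224, 237 and 229 CPM. DUSP1 was 7.70-fold, DUSP5 3.57-fold and the cytoplasmic ERK phosphatase DUSP6 3.01-fold higher. Other brakes fell: DUSP9 went from 1.08 ± 0.547 to 0.0741 ± 0.0677 CPM (SD, n = 3), DUSP8 was 6.30-fold lower and SPRY1 was 2.29-fold lower. Of 16 AP-1 and EGR factors 9 rose and 3 fell. EGR1 was 4.07-fold and JUNB 2.94-fold higher. The falls were MAF, from 3.06 ± 0.487 to 0.212 ± 0.0704 CPM (SD, n = 3), the largest change of the list, JUN, 1.76-fold lower, and EGR3, 1.90-fold lower. MYC, on the same list of ERK targets, read 397, 425 and 417 CPM in A10 and 1146, 1174 and 951 CPM in NeoT.

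Ligands of the EGF receptor split. EREG read 29.6, 27.4 and 33.7 CPM in A10 and 151, 167 and 191 CPM in NeoT, 5.60-fold higher, and AREG was 2.04-fold higher. HBEGF, a ligand of the same receptor, read 67.3, 69.9 and 68.0 CPM against 3.84, 3.28 and 4.17 CPM, 18.2-fold lower (adjusted p = 1.262e-10, edgeR). Of 24 growth factors tested, 7 rose and 14 fell. Among 21 receptor tyrosine kinases 6 rose and 11 fell, and the FGF receptors showed the sharpest exchange. FGFR3 read 79.4, 92.2 and 93.9 CPM in A10 and 0.134, 0 and 0.0588 CPM in NeoT, and FGFR2 fell from 10.7 ± 1.45 to 0.148 ± 0.155 CPM (SD, n = 3). FGFR1, the member typical of mesenchyme, rose from 10.3 ± 0.867 to 33.2 ± 1.55 CPM. AXL was 5.36-fold higher, and the collagen receptor DDR1, an epithelial kinase, was 4.96-fold lower. EGFR itself moved by 1.36-fold, downward (adjusted p = 0.005256, edgeR).

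**Figure D3:**
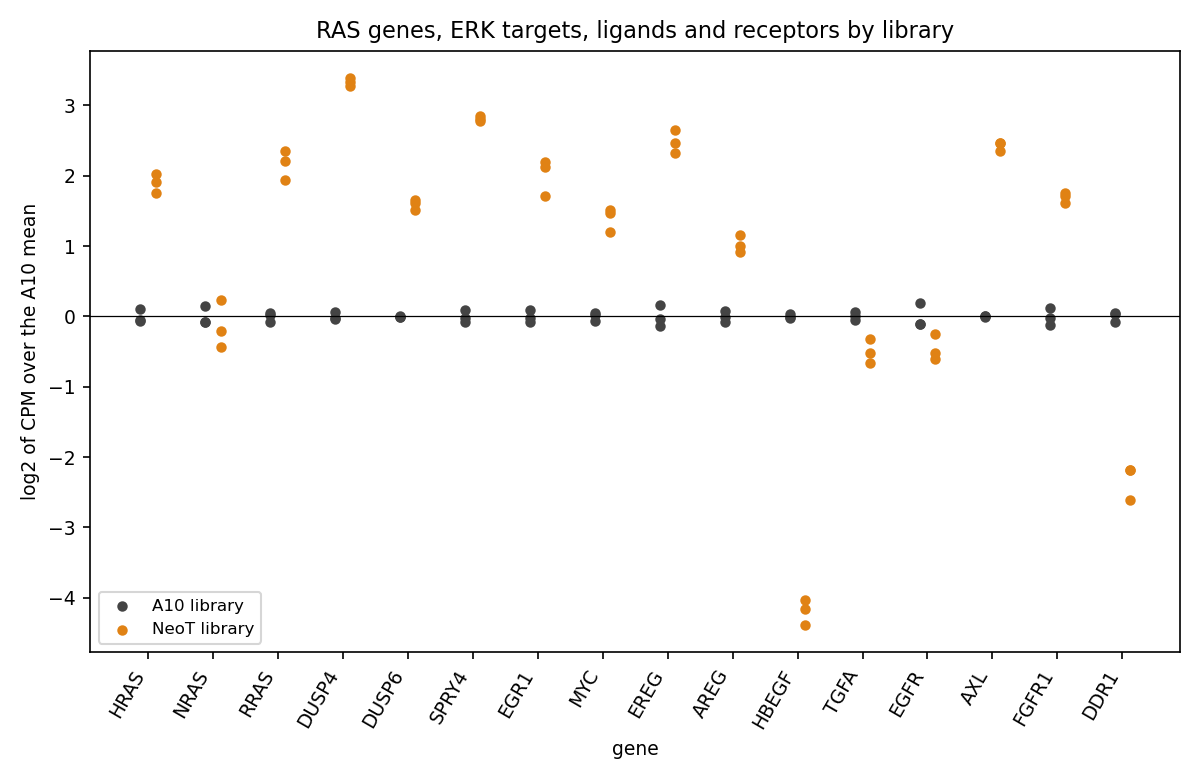
Each dot is 1 library, plotted as the log2 of its CPM over the mean of the 3 A10 libraries, for RAS genes, ERK targets, EGF receptor ligands and receptors. HRAS, RRAS, DUSP4, DUSP6, SPRY4, EGR1, MYC, EREG and AREG lie above 0 in every NeoT library, HBEGF and DDR1 lie far below, and the NRAS libraries overlap.

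Genes of cell division were lower in NeoT with few exceptions. All 44 mitosis and spindle genes fell, each by at least 2-fold and none with overlapping libraries, with a median log2 fold change of -2.27 where 35.7% of all genes fell. PLK1, the kinase that drives entry into and passage through mitosis, read 125, 132 and 131 CPM in A10 and 14.5, 13.6 and 13.8 CPM in NeoT, 9.23-fold lower (log2 -3.21, SE 0.0926, adjusted p = 1.209e-10, edgeR). MYBL2, a transcription factor of the G2 and M phase programme, read 107 ± 2.45 CPM in A10 and 11.1 ± 1.72 CPM in NeoT (SD, n = 3). CENPF, a kinetochore protein, was 7.87-fold lower and the kinesin KIF14 8.60-fold lower. TOP2A fell least, by 2.17-fold. Of 36 DNA replication genes 34 fell and none rose, with a median of -1.60. CDC6, which loads the replicative helicase, was 5.99-fold lower and the GINS subunit GINS2 was 6.55-fold lower. CDT1, the partner of CDC6, read 60.8, 77.7 and 72.3 CPM against 70.4, 62.0 and 55.9 CPM and was not called. The polymerase subunit POLD1 (log2 0.21) was not called either, but passed the test as a rise without A10 replicate 2 (log2 0.34) or NeoT replicate 3 (log2 0.26).

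Many mitotic promoters carry the cell cycle homology region, TTTGAA, through which the DREAM and MMB complexes are known to act. In the same 300-base windows TTTGAA, on either strand, was found in 28 of 38 mitosis promoters (73.7%), in 9.60% of the 10641 promoters of tested genes and in 15.4% of all promoters. Among 32 DNA replication promoters the share was 3.12%. The sequence CCAAT was found in 29 of the 38 mitosis promoters (76.3%), 56.2% of the replication promoters and 36.8% of tested genes. These are matches of letters and not shown to be sites. Stretches of 60 bases upstream of the start are given for genes of the list that fell by over 5-fold, on the gene's strand with TTTGAA in capitals: PLK1 (chr16:23678829-23678888, plus), HMMR, a spindle and hyaluronan-binding protein (chr5:163460572-163460631, plus), KIF23, a kinesin of the central spindle (chr15:69414267-69414326, plus), CDC20, an activator of the anaphase-promoting complex (chr1:43358889-43358948, plus), and MKI67, the Ki-67 gene (chr10:128126424-128126483, minus). In HMMR and MKI67 the stretch holds the sequence at more than 1 place.
PLK1: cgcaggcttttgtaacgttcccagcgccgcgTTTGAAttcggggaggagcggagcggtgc
HMMR: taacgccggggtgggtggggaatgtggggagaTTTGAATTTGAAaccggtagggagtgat
KIF23: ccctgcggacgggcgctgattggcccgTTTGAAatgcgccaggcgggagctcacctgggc
CDC20: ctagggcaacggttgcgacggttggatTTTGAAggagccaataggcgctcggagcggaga
MKI67: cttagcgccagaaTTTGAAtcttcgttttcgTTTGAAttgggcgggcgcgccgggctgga

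The fall was 6.66-fold for HMMR, 6.02-fold for KIF23, 5.82-fold for CDC20 and 5.69-fold for MKI67. MKI67 read 178, 217 and 184 CPM in A10 and 28.8, 37.6 and 35.3 CPM in NeoT, so that the lowest A10 library stood well above the highest NeoT library.

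Of 26 cyclins, cyclin-dependent kinases, inhibitors and partners, 17 fell and 5 rose. CCND2, cyclin D2, read 87.1, 80.0 and 86.7 CPM in A10 and had no count in NeoT, at least 1748-fold lower. CCNB1, cyclin B1, was 5.46-fold lower. CDKN1A, the p21 inhibitor, rose from 395 ± 11.5 to 784 ± 100.3 CPM (SD, n = 3). CDKN2A and CDKN2B, the p16 and p15 inhibitors at 9p21, had no count in any of the 6 libraries, which allows up to 0.0331 CPM in A10 and 0.0484 CPM in NeoT for counting error. Among 30 DNA repair and checkpoint genes 23 fell and 2 rose. EXO1, a resection nuclease, was 6.07-fold lower and PARP1, which senses DNA breaks, was 4.18-fold lower. ATM, the kinase that signals double-strand breaks, read 54.3, 46.4 and 43.1 CPM in A10 and 99.9, 107 and 134 CPM in NeoT, 2.36-fold higher, and XRCC1, a scaffold of single-strand break repair, was 2.39-fold higher. The 26 p53 targets divided evenly, 12 up and 12 down, with GDF15 at 7.46-fold higher and SFN among the falls. In the BCL2 family the survival gene MCL1 was 2.11-fold higher, while the death genes split: BBC3 was 4.07-fold higher and BIK fell from 28.5 ± 0.347 to 0.327 ± 0.567 CPM (SD, n = 3).

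Genes of the cytosolic ribosome rose nearly as one. Of 77 ribosomal protein genes 67 rose and none fell, with a median log2 fold change of 0.69, whereas of 68 mitochondrial ribosomal protein genes 12 rose and 22 fell around a median of -0.08. RPS19, a protein of the small subunit, read 921, 982 and 1080.2 CPM in A10 and 3315, 2898 and 2614 CPM in NeoT, 2.96-fold higher (adjusted p = 8.018e-08, edgeR). RPL13A, of the large subunit, read 2585, 2654 and 2908 CPM against 8085, 6952 and 7194 CPM. The elongation factors rose with them, EEF2 by 2.36-fold and EEF1A1 by 1.69-fold. Members on chromosome 19 rose more: the 13 genes there had a median of 1.14 and the other 64 a median of 0.68. Ribosomal proteins have many near-identical pseudogenes, so their counts depend on how the authors' quantification split such reads. The lists of ribosome biogenesis (9 of 30 up, 8 down) and of the proteasome (4 of 34 up, 18 down) did not share the rise. Without NeoT replicate 3 the mitochondrial list had 20 members up in place of 12.

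**Figure D4:**
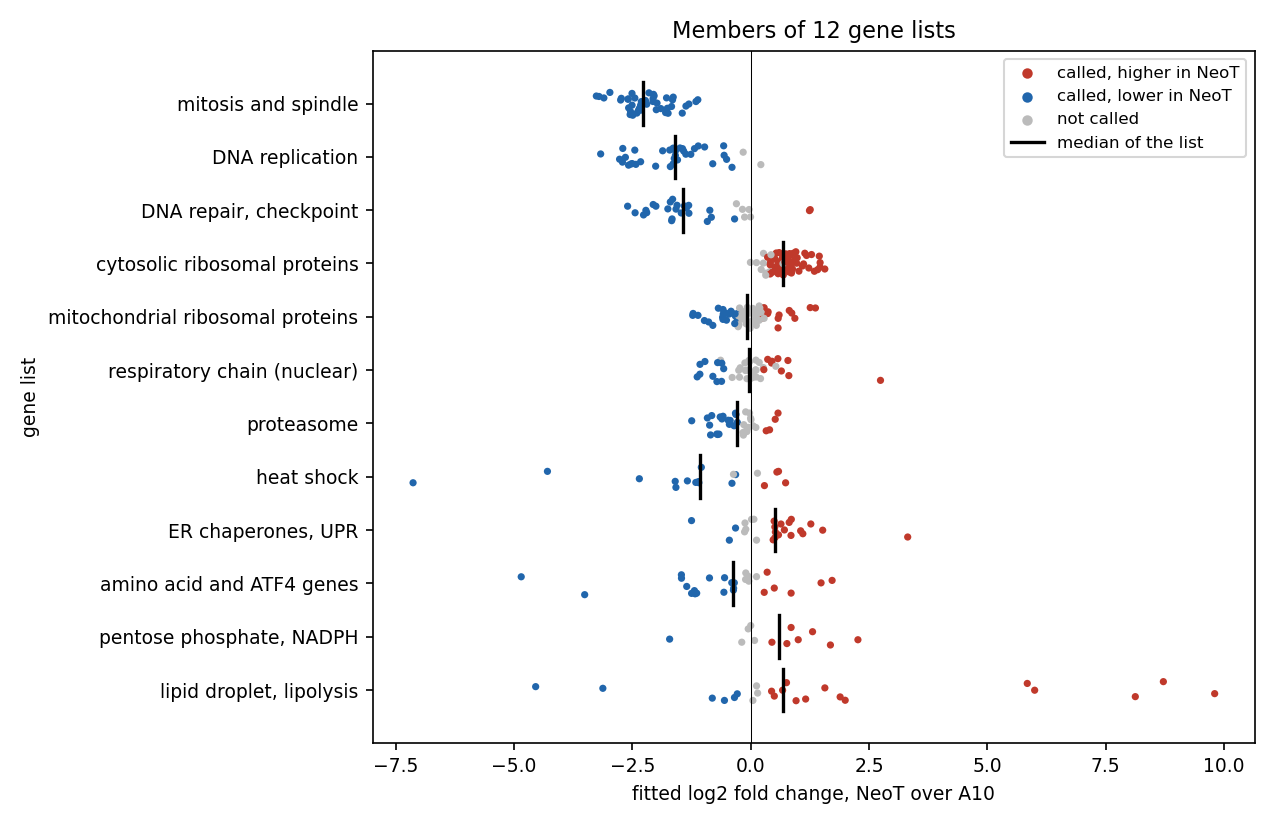
Each dot is 1 gene of 12 lists, placed by its fitted log2 fold change (NeoT over A10) and coloured by whether it passed the test; black bars are list medians. The mitosis, replication and repair lists lie left of 0, the cytosolic ribosomal proteins lie right of 0 with a median of 0.69, and the mitochondrial ribosomal and respiratory chain lists straddle it.

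The lists of endoplasmic reticulum chaperones and of heat shock genes moved in opposite directions. Of 25 endoplasmic reticulum and unfolded protein response genes 16 rose and 3 fell (1 fell without A10 replicate 2), with a median of 0.51. HSP90B1, the lumenal HSP90, was 2.14-fold higher and DDIT3, the CHOP factor of the stress response, read 2.84, 4.06 and 3.91 CPM in A10 and 43.4, 34.6 and 28.3 CPM in NeoT. Of 18 heat shock genes 12 fell and 4 rose, with a median of -1.07. That list is not limited to the cytosol: it includes the mitochondrial chaperonins HSPD1 and HSPE1 and the transcription factors HSF1 and HSF2. HSPA1A, the inducible HSP70, was 5.11-fold lower and HSP90AA1, the inducible cytosolic HSP90, was 2.24-fold lower. HSPA1A has a near-identical neighbour, HSPA1B, and its share of their reads is uncertain.

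Amino acid supply genes fell more often than they rose, 16 of 27 against 6. SLC7A5, the large neutral amino acid transporter, read 2484, 2808 and 2675 CPM in A10 and 92.3, 96.2 and 87.6 CPM in NeoT, 28.9-fold lower (log2 -4.85, SE 0.0917, adjusted p = 1.051e-11, edgeR), and its partner chain SLC3A2 was 2.28-fold lower. The upstream factor ATF4 did not follow them and was 1.80-fold higher. In carbohydrate metabolism the glucose transporter SLC2A1 was 5.07-fold lower while hexokinase HK1 was 2.24-fold higher. Genes of the pentose phosphate path and of NADPH supply, taken as 1 list, rose in 7 of 12 cases and fell in 1. TKT, transketolase of the pentose phosphate path, was 3.21-fold higher. The member that fell was IDH1, cytosolic isocitrate dehydrogenase, by 3.28-fold. PYGB, which breaks down glycogen, was 6.81-fold higher and had one of the largest rises in mean CPM.

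Lipid genes included some of the steepest rises from near 0. CD36, a fatty acid transporter, read 1.08 ± 0.539 CPM in A10 and 73.1 ± 5.61 CPM in NeoT (SD, n = 3), 64.0-fold higher, and AOC3, an amine oxidase of adipocytes and smooth muscle, averaged 0.0618 ± 0.0544 and 29.9 ± 2.86 CPM (SD, n = 3). PPARG, the master factor of fat cells, was 9.83-fold higher. Of 23 lipid droplet and lipolysis genes 14 rose and 6 fell. Of 22 fatty acid synthesis and desaturation genes 9 rose and 7 fell. The desaturases differed: FADS2 was 19.1-fold, SCD5 4.85-fold and FADS3 2.25-fold lower, FADS1 was 2.18-fold higher, and SCD was not called (adjusted p = 0.08849, edgeR; called without NeoT replicate 3, log2 -0.18). The adipocyte marker sums given above were higher, with 6 of 7 rising, but that list shares CIDEC with the lipid droplet list and is not a separate observation. ADIPOQ stayed at 0 in both lines, and the part of such cells was not tested.

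Iron and detoxification genes also shifted. FTL, the ferritin light chain, read 546, 561 and 554 CPM in A10 and 5571, 5273 and 4642 CPM in NeoT, 9.32-fold higher (adjusted p = 8.836e-11, edgeR). AKR1C1, an aldo-keto reductase, was 26.9-fold higher and its near relative AKR1C2 was 8.13-fold higher, and shared reads between such copies are uncertain. ALDH1A3, a retinaldehyde dehydrogenase of mammary progenitors, fell from 485 ± 16.8 to 9.18 ± 0.787 CPM (SD, n = 3). The metallothioneins MT1X and MT2A moved in opposite directions, MT1X 17.3-fold higher and MT2A 1.62-fold lower. Of 7 genes tested on the metallothionein list 2 rose and 2 fell (57.1% called, against 69.1% of all genes). The largest fitted change of that list was a fall, at log2 -11.65, in a member not named here.

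In signalling between cells, 22 of 35 TGF-beta and BMP pathway genes rose and 6 fell. BMP6 read 0.538, 0.290 and 0.438 CPM in A10 and 43.7, 49.7 and 44.0 CPM in NeoT, TGFB2 was 6.05-fold higher, and SMAD6, an inhibitor of BMP signals, was 9.09-fold higher (log2 3.18, and 4.0 without A10 replicate 1). FST, follistatin, which binds activin, was 6.51-fold lower. The Notch receptors moved apart: NOTCH3 read 7.92, 11.8 and 8.84 CPM against 151, 158 and 116 CPM, and NOTCH1 was 2.57-fold lower. SFRP1, a secreted WNT antagonist, was 14.5-fold lower, and RNF43, which removes WNT receptors, had no count in NeoT, at least 282-fold lower. Of 25 TNF superfamily genes 18 fell and 5 rose. In the interleukin 1 family IL1A was 23.4-fold and IL1B 15.0-fold lower, while IL1RL1, the interleukin 33 receptor, averaged 0.0914 ± 0.0797 CPM in A10 and 72.6 ± 1.83 CPM in NeoT (SD, n = 3).

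Some changes followed position along chromosomes. Over 8172 genes of at least 10 CPM in both lines, the median log2 fold change was 0.02, and medians in 162 windows of 10 megabases ran from -0.97 to 0.86. On chromosome 1 beyond 150 megabases, 354 genes had a median of -0.625, with 244 lower (68.9%) and 37 higher. Up to 120 megabases on that chromosome, 469 genes had a median of -0.05, with 165 lower and 146 higher. The lower level was seen in each NeoT library, with medians relative to the A10 mean of -0.61, -0.60 and -0.57. Each A10 library was set against the mean of the other A10 libraries, with medians of 0.02, -0.01 and -0.01. The window from position 220000001 was the lowest of all, with a median of -0.97 over 44 genes, 36 of them lower. PARP1, whose fall is given above, lies within it, from 226360691 to 226408093. LAMB3 lies on the same arm and nevertheless rose.

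Regions of the opposite sign included the end of chromosome 19 beyond 30 megabases (234 genes, median 0.60, 158 higher and 21 lower), chromosome 9 up to 40 megabases (83 genes, median 0.67, 56 higher and 5 lower) and from 90 to 100 megabases (30 genes, median 0.67, 20 higher and 3 lower), and chromosome 17 between 10 and 20 megabases (40 genes, median 0.58, 29 higher and 4 lower). Chromosome 20 as a whole had a median of 0.38 over 253 genes, but its first window of 10 megabases was at -0.12 (44 genes, 17 higher and 17 lower), and windows from 30 megabases on were at 0.41 to 0.51. In NeoT replicate 3 the median of the chromosome 19 region was 0.39, against 0.71 and 0.68 in the other NeoT libraries. RPS19 and FTL (log2 3.22) lie on chromosome 19, and the part of the regional shift in their rises was not tested. In a fit to all 12 libraries the chromosome 1 region was also lower in MCFT1 and MCFCA1 (medians -0.73 and -0.74, with the A10 libraries shared by all 3 comparisons), whereas chromosome 20 was lower in them (-0.26 and -0.36). In MCFT1 and MCFCA1, chromosome 9 up to 40 megabases was at 0.73 and 0.72 and the chromosome 17 region at 0.65 and 0.71. The chromosome 19 region was at 0.51 and -0.07 in them, and chromosome 9 from 90 to 100 megabases at -0.0045 and 0.23. DNA copy number was not analysed here, and its part in these medians was not tested.

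**Figure D5:**
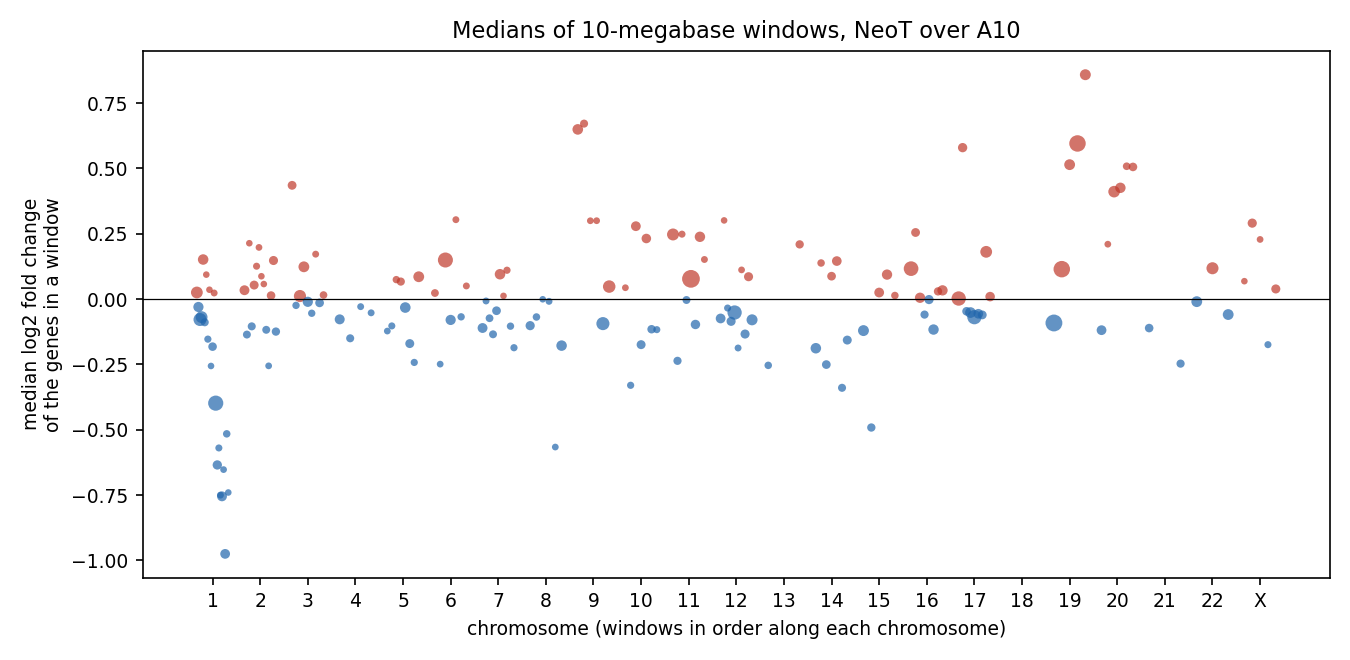
Each dot is the median log2 fold change (NeoT over A10) of the genes in 1 window of 10 megabases with at least 20 genes of 10 CPM or more in both lines, in order along each chromosome, with larger dots for more genes. The windows of the far end of chromosome 1 reach -0.97, while the highest median, 0.86, is on chromosome 19.

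The 3 NeoT libraries disagreed most on a few genes. S100A2, a calcium-binding gene of basal epithelium, read 1202, 948 and 1097 CPM in A10 and 156, 129 and 41.9 CPM in NeoT. It was lower in every NeoT library, and the call had an adjusted p of 0.003408 (edgeR). CPLX1 read 27.6, 27.4 and 9.94 CPM in NeoT and TMA7 read 42.2, 27.1 and 14.4 CPM, with replicate 3 again the lowest. SMG1P1 departed in another library, with 6.88, 18.9 and 8.29 CPM. Of the 12 S100 genes tested on chromosome 1, with S100A2 included, 9 fell and 3 were not called. Of all genes tested on that chromosome 52.0% fell. Beyond 150 megabases 68.9% fell, among genes of at least 10 CPM in both lines. The part of position in the S100 falls was not tested. S100A9 went from 1170.1, 1142 and 1266 CPM to 48.6, 35.2 and 24.3 CPM, and S100P, the 1 member tested elsewhere in the genome, was 6.42-fold higher.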

How the data were processed

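RNA was measured in 3 libraries each of MCF10A and MCFNeoT. The authors deposited a table of Salmon estimated counts per gene, per the file headers. The Salmon version and annotation are not given in the sources used here; GRCh38 and limma appear in the submitters' processing notes with no step attached. Of the values in the 6 libraries, 9.99% were not whole and all were rounded. Of 29744 rows, 11472 had no count in the 6 libraries.

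Counts were tested with edgeR 4.0.16 in R 4.3.3: filterByExpr on the line (minimum count 10), TMM scaling, robust quasi-likelihood fit with line as the only term, two-sided, Benjamini-Hochberg adjustment over 13662 genes, called below 0.05. The script was tested on simulated data. Reported levels are TMM-scaled CPM with SD over 3 libraries; genes at 0 in a line are bounded with a floor of 3 counts over the line. Intervals and floors cover counting error only. Positions and promoters were matched to RefSeq GRCh38.p14 by symbol; promoters use the first start listed.

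Members and gene lists were chosen with earlier results of these data known. Named genes are HRAS, up to 6 of each list's called members with the largest change and at least 10 CPM in the higher line, members on which a contrast turns, and the leading genes by change of mean CPM, by fold and by spread in NeoT. NRAS, EGFR and others under contrasts were picked after their values were seen. Some genes that the rule names are not reported here. Alternatives were other scalings and filters, DESeq2 1.42.0, limma-voom 3.58.1, a fit to all 12 libraries, a replicate block, a test against a 2-fold change and leaving out each library; taking out rRNA rows was chosen after seeing the data.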

Additional observations from a re-analysis of the deposited data

How the results depend on the processing

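Against 9434 calls, there were 9424 with RLE scaling (9406 shared), 9456 with upper-quartile scaling (9323 shared), 9779 with no filter (9184 shared), 8987 with a filter of 1 CPM (8898 shared), 9432 with DESeq2 (9377 shared), 9592 with limma-voom (9389 shared), 10144 in the fit to all 12 libraries (9341 shared) and 9435 without rRNA rows (9431 shared), and none of the shared calls changed sign. Tested against a 2-fold change, which asks for more, 3340 genes passed. Leaving out 1 library gave 8587 to 10193 calls, 4698 to 4931 calls of at least 2-fold (4727 with all libraries) and an HRAS log2 fold change of 1.83 to 1.97; the most calls came without NeoT replicate 3. The share of rises among calls lay between 47.18% and 49.61% under these scalings, filters and tools, against 48.31%.

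Libraries with the same replicate number did not deviate together (correlations of -0.0688, 0.0453 and -0.0856). The labels do not say whether the numbers pair the samples. These correlations cannot decide it, since paired handling need not leave a shared deviation. With the replicate block, 8798 genes were called, 4614 by at least 2-fold, and HRAS was at 1.90.

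Without NeoT replicate 3, the respiratory chain list had 14 members up in place of 9 and the RAS regulator list 8 down in place of 5, as in the fit to all 12 libraries. Without NeoT replicate 2, SMG1P1 was at a log2 fold change of 0.96 in place of 1.55. Fitted values of genes near 0 in a line moved most: BIK ran from -12.54 to -5.69, OCLN reached -8.90 from -7.04, SOX15 -9.64 from -8.43, FGFR3 -11.52 from -10.32, FGFR2 -7.05 from -6.02, CLDN1 -9.45 from -8.86, MYL9 -9.00 from -8.35, DUSP9 -4.29 from -3.66, CIDEC 12.28 from 9.80 and AOC3 9.39 from 8.72. Depth limits genes near the floors of 0.0331 and 0.0484 CPM, where no fold is firm.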
